A study of Sus scrofa with 16 samples.

Results

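The porcine array carried probes for 21 genes whose names in the scanner files start with PSMA, PSMB, PSMC, PSMD, PSME or UBE2, the subunits and activators of the proteasome and the ubiquitin-conjugating enzymes, of 35458 distinct gene names in all. These genes had 65 of the 43603 probes, and each gene was read at the probe with the highest mean log2 signal over the 16 arrays, since 17 of them had more than 1 probe and 4 had a single one. The genes comprised 11 constitutive subunits and activators (PSMA4, PSMA5, PSMA6, PSMB3, PSMB4, PSMB6, PSMB7, PSMC1, PSMC6, PSMD4 and PSME3), 5 genes of the immunoproteasome (PSMB8, PSMB9, PSMB10, PSME1 and PSME2) and 5 ubiquitin-conjugating enzymes (UBE2D2, UBE2J1, UBE2L3, UBE2Q1 and UBE2W). Every one of the 21 chosen probes was flagged as well above background by the scanner software on each of the 16 arrays, so no gene was lost to low signal.

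The proteasome is the protease that breaks down most short-lived and damaged proteins of the cytosol and nucleus. Ubiquitin is activated by an E1 enzyme, passed to an E2 (the UBE2 family) and attached to the target with the help of an E3 ligase, after which the regulatory particle (PSMC ATPases and PSMD subunits) recognises, unfolds and feeds the target into a core of PSMA (alpha) and PSMB (beta) rings. In immune cells, and in other cells exposed to interferon, the catalytic subunits PSMB6, PSMB7 and PSMB5 are replaced in newly made cores by PSMB9, PSMB10 and PSMB8, and PSME1 and PSME2 form an activator that binds the same cores. The immunoproteasome is best known for producing peptides that are presented on MHC class I, and both the gut mucosa and the liver contain cells in which it can be induced.

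The arrays measured the liver and the mucosa scraped from the proximal colon of male Duroc × Landrace × Large White pigs, aged 170 d, that had been fed a corn and soybean diet from the age of 70 d for 100 days. The control pigs received purified corn starch (CS) and the others raw potato starch (RPS), a starch that resists digestion in the small intestine, in the same place in the diet, at 230 g/kg of feed in the growing period and 280 g/kg from the age of 120 d. Each of the 4 groups (colon CS, colon RPS, liver CS and liver RPS) held 4 arrays, each array labelled as a separate replicate. Pigs shared pens, but 1 pig per pen was killed, so that replicates came from separate pens. The 4 arrays of a group lay on 1 slide that held no other group, so slide and group cannot be told apart in any comparison that follows. Median signals before normalization ran from 56.3 to 70.8 on the colon CS arrays and from 34.2 to 42.5 on the colon RPS arrays. In both liver groups together they ran from 30.6 to 37.9. Quantile normalization gave the arrays the same distribution of signals, but whether effects of the gap on single probes remained was not tested. The tissue labels went with their markers: all 7 hepatocyte genes measured passed as lower in colon and 5 of 6 epithelial genes passed as higher there, CDH1 being higher at 0.44 without passing, while FGA and TTR were not well above background on any colonic array and CDX2 on no liver array.

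The arrays read these genes through probes of 60 bases, and those of the immunoproteasome genes are shown because the largest differences rest on them. The probes of PSMB8, the beta subunit that takes the place of PSMB5, are A_72_P444948 (the one used), A_72_P564399 and A_72_P088176. The first and the second overlap by the 37 bases in capitals, whereas the last shares no stretch of over 6 bases with the first.
PSMB8, A_72_P444948: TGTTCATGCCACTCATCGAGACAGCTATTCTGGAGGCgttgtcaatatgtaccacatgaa
PSMB8, A_72_P564399: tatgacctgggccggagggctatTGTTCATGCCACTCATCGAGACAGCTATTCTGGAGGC
PSMB8, A_72_P088176: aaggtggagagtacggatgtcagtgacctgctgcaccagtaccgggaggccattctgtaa
One probe each is shown for the other inducible beta subunits and for the inducible activator, with no capitals because no stretch is compared. For PSMB9 it is the gene's second probe, whose log2 difference between the tissues was 3.12, against 2.99 at the probe used for the values.
PSMB9, A_72_P440071: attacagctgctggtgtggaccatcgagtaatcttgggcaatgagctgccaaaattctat
PSMB10, A_72_P644145: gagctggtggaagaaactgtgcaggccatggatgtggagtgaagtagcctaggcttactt
PSME1, A_72_P035626: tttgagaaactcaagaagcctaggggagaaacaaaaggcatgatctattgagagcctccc
PSME2, A_72_P146981: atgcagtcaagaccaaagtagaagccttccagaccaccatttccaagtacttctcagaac
The constitutive beta subunits that PSMB9 and PSMB10 replace are PSMB6 and PSMB7, and PSMB3 is shown because it was the single gene that passed the thresholds for the diet.
PSMB6, A_72_P621004: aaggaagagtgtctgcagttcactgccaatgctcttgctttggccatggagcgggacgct
PSMB7, A_72_P607493: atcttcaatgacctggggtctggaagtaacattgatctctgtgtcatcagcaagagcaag
PSMB3, A_72_P394728: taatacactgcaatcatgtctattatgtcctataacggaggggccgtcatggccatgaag
In the RefSeq gene order of the pig (assembly Sscrofa11.1), TAP2, PSMB8, TAP1 and PSMB9 follow each other in the MHC region, and PSME2 and PSME1 are separated by EMC9 alone, with IRF9 on the other side of PSME2. No other genes of the 21 were direct or next-but-one neighbours.

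In the colonic mucosa, the diet comparison found 1 of the 21 genes past both thresholds (unadjusted p under 0.05, change over 1.5-fold). Of all 43603 probes, 2.94% passed in either direction and 1.62% upward. That gene was PSMB3, a non-catalytic subunit of the beta ring, which was 1.51-fold higher with RPS. The level of PSMB3 (log2 signal, normalized over the colonic arrays) was 7.39, 7.25, 7.33 and 6.77 in the CS pigs and 7.56, 8.30, 7.43 and 7.84 in the RPS pigs. Every RPS array was above every CS array, though the closest pair, 7.39 and 7.43, were almost level. The log2 difference of PSMB3 was 0.60 ± 0.23 (SE, n = 4 per diet), with a 95% interval of 0.06 to 1.13 and an unadjusted limma p of 0.0339. It did not withstand correction over all probes (limma with Benjamini-Hochberg adjustment, adjusted p = 0.897), and an exact permutation test over the pigs, two-sided, reached 0.0286, the smallest p that 4 arrays against 4 can give. With the replicate number as a block PSMB3 did not pass (limma, unadjusted p = 0.0675, adjusted p = 1.0), nor did it in the fit of all 16 arrays, with 75th percentile scaling, with normexp background correction, or without any 1 of 4 arrays (colon CS replicate 2 or 4, colon RPS replicate 2 or 4). No probe of the array reached an adjusted p under 0.05 in this comparison (limma, smallest adjusted p 0.0700, with 2362 probes at an unadjusted p under 0.05). PSMB3 had no other probe, and its log2 difference in liver was -0.03, with a 95% interval of -0.95 to 0.89. Its probe was the dimmest of the 21 chosen, with a mean log2 signal of 7.42 over the 16 arrays, and the next was that of UBE2W at 8.83.

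None of the 5 immunoproteasome genes passed the thresholds in colon. PSMB8 had the largest difference of the 21 genes, at levels of 12.66, 11.95, 12.90 and 12.95 with CS and 11.83, 11.89, 12.72 and 10.91 with RPS. The groups overlapped, because RPS replicate 3 lay among the CS arrays. The log2 difference of PSMB8 was -0.78 ± 0.40 (SE), with a 95% interval of -1.72 to 0.16 (limma, unadjusted p = 0.0923, adjusted p = 0.982). Without colon CS replicate 2 it was -1.0 (limma, unadjusted p = 0.0480, adjusted p = 0.997) and without colon RPS replicate 3 it was -1.07 (limma, unadjusted p = 0.0208, adjusted p = 0.791), and both of these values passed the thresholds, whereas without colon RPS replicate 4 it was -0.47. PSMB9 stood at 15.09, 15.26, 14.71 and 15.28 with CS and at 15.58, 14.96, 15.28 and 14.37 with RPS, a log2 difference of -0.04 with an interval of -0.68 to 0.60. Its neighbour in the core, PSMB10, differed by 0.25 (-0.17 to 0.68), PSME1 by -0.20 (-0.53 to 0.13) and PSME2 by -0.07 (-0.48 to 0.34). The median of the 5 genes was -0.07, and that of all probes 0.01.

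Some markers of other cells also passed the diet thresholds in colon, as did 2.94% of all probes, none at an adjusted p under 0.05. Of 6 macrophage genes, 3 (C1QA, C1QB and C1QC) passed downward (limma, adjusted p 0.594 to 0.819), while CD14 was level at 0.00. The summed signal of the 6 was 44295 to 50055 with CS and 14389 to 33562 with RPS. All 7 T cell genes had lower estimates with RPS and 1 of them, CD4, passed at a log2 difference of -0.99 (limma, adjusted p = 0.756). Their summed signal was 4546 to 12803 with CS and 2255 to 8190 with RPS. The 2 B cell genes measured, CD79A and MS4A1, had log2 differences of -1.60 and -1.59 and did not pass. Of 3 smooth muscle and matrix genes, COL1A2 passed downward at -0.72, and of 6 epithelial genes none passed. All of these markers were well above background on every colonic array, and their part in the levels of the immunoproteasome genes was not tested. In bulk tissue, fewer cells of a type and less RNA per cell cannot be told apart.

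The remaining constitutive subunits differed little in colon. PSMA4, PSMA5 and PSMA6 of the alpha ring, which gates the core, differed by -0.12, 0.06 and -0.05 on the log2 scale. PSMB6, with caspase-like activity, differed by -0.01 (95% interval -0.34 to 0.32), PSMB7, with trypsin-like activity, by 0.11 (-0.26 to 0.47), and PSMB4 of the same ring by 0.04 (-0.41 to 0.48). PSMC1 and PSMC6, ATPases of the regulatory particle, differed by 0.02 and -0.03. PSMD4, a ubiquitin receptor of that particle, was the exception in size, at 10.52, 10.26, 11.47 and 10.19 with CS and 10.58, 11.18, 11.32 and 11.45 with RPS. One CS pig, replicate 3, was above all RPS pigs, and the log2 difference of PSMD4 was 0.52, with an interval of -0.24 to 1.29. Without that array it was 0.81 and passed the thresholds (limma, unadjusted p = 0.0114, adjusted p = 0.651). The same array had the lowest EPCAM and the highest MS4A1 of the colonic arrays, and a link with PSMD4 was not tested. PSME3, the subunit of the nuclear activator, differed by 0.04. Over the 11 genes the median was 0.04.

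Among the UBE2 enzymes, UBE2W, which attaches ubiquitin to the N-terminus of proteins, had the smallest p. Its levels in colon were 9.19, 9.02, 9.04 and 9.08 with CS and 9.41, 9.37, 9.20 and 9.25 with RPS. The groups did not overlap, but the difference of 0.22 ± 0.09 (SE) on the log2 scale, with an interval of 0.01 to 0.44, was below 1.5-fold (limma, unadjusted p = 0.0439, adjusted p = 0.911). The other probe of UBE2W gave 0.41 in the same direction (unadjusted p = 0.00304). UBE2D2, a broad partner of E3 ligases, differed by -0.22, UBE2J1 of the endoplasmic reticulum by -0.19, UBE2L3, which serves HECT and RBR ligases, by -0.02 and UBE2Q1 by -0.27. Colon RPS replicate 4 was the lowest of the 8 arrays for UBE2J1, at 10.43, against 11.11 to 11.68 in the other RPS pigs, and for 3 of the 5 immunoproteasome genes. The median of the 5 enzymes was -0.19. In all, 2 of the 21 genes had groups without overlap in colon, PSMB3 and UBE2W, and of all probes 6.51% did.

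In the liver, none of the 21 genes passed the thresholds, against 3.56% of all probes. At an unadjusted limma p under 0.05, without the fold threshold, there were 2 genes, PSMA6 and UBE2W, and 7.59% of all probes had such a p. Under none of the 21 alternatives did any gene pass both thresholds. PSMA6, an alpha subunit, stood at 13.38, 13.41, 13.24 and 13.34 with CS and at 13.52, 13.63, 13.93 and 13.44 with RPS. All 4 RPS pigs were above all CS pigs, with a log2 difference of 0.29 (95% interval 0.01 to 0.57, unadjusted p = 0.0434, adjusted p = 0.635). The 3 other probes of PSMA6 gave liver differences in the same direction, all 4 between 0.26 and 0.29. In colon, the same gene differed by -0.05.

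UBE2W was read at 8.51, 8.29, 8.24 and 8.39 with CS and 8.62, 8.55, 8.61 and 8.53 with RPS in liver. Its log2 difference there was 0.22 (0.03 to 0.41, unadjusted p = 0.0309, adjusted p = 0.600), again without overlap. At the probe used, UBE2W was the single gene of the 21 whose RPS pigs were all above the CS pigs in both tissues. The factor was about 1.17 in colon and 1.16 in liver. How many of all probes had this pattern in both tissues was not counted. The other UBE2W probe gave 0.08 in liver (unadjusted p = 0.413), where its groups overlapped. PSMA6 and UBE2W were the 2 genes of the 21 whose liver groups did not overlap, and 4.45% of all probes had such groups.

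Of the immunoproteasome genes in liver, PSMB8 was again the lowest estimate at -0.61, with the widest interval, -2.08 to 0.87. Its levels were 10.45, 8.45, 9.60 and 10.39 with CS and 8.02, 9.20, 10.49 and 8.76 with RPS. The pigs of either diet spanned about 2 log2 units or more, and the groups overlapped throughout. The log2 difference was 0.03 for PSMB9 (-1.10 to 1.17), 0.21 for PSMB10 (-0.22 to 0.64), 0.20 for PSME1 (-0.27 to 0.67) and 0.33 for PSME2 (-0.33 to 0.99). The median of the 5 genes was 0.20, that of the 11 constitutive genes 0.08, that of the 5 UBE2 enzymes -0.03, and that of all probes -0.00.

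How much of a diet difference these arrays could have missed varied between the genes. In colon, the 95% intervals of 13 of the 21 genes lay wholly within 1.5-fold of no difference in either direction, and in liver those of 11 genes did. For UBE2L3 in liver the interval was -0.22 to 0.16 and for PSMC6 it was -0.14 to 0.21. For PSMB9 in liver, in contrast, a 2-fold change in either direction lay within the interval, and for PSMB8 a 4-fold lower level did.

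**Figure D1:**
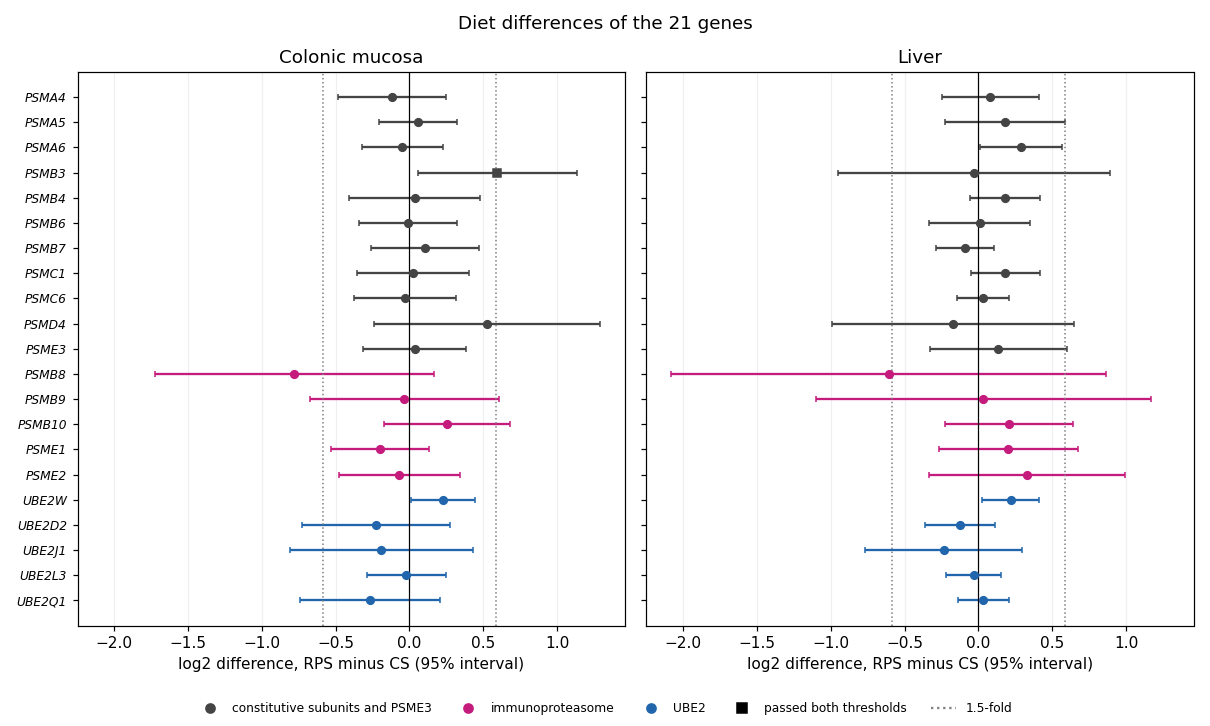
Log2 difference in signal, RPS minus CS, of the 21 genes in colonic mucosa (left) and liver (right), with 95% intervals from limma (4 pigs per diet and tissue). Dotted lines mark 1.5-fold, and the square marks PSMB3 in colon, at 0.60, the single gene past both thresholds, while the intervals of PSMB8 are the widest in both panels.

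Whether the diet acted differently in the 2 tissues was tested as the difference of the diet effects over all 16 arrays normalized together. No gene of the 21 passed an unadjusted p under 0.05 with a fold above 1.5, against 3.76% of all probes, and none had an unadjusted limma p under 0.05. The smallest p was that of PSMA6 (unadjusted p = 0.0808, adjusted p = 0.999), with a difference of effects of -0.32 on the log2 scale and a 95% interval of -0.69 to 0.05. The largest difference was 0.71 for PSMD4 (-0.36 to 1.77), followed by 0.64 for PSMB3 (-0.36 to 1.64). The call of PSMB3 in colon is therefore not shown to differ from its value in liver. Without liver RPS replicate 3, or without colon CS replicate 3, PSMD4 passed and no other gene did.

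Between the tissues, the inducible beta subunits PSMB8, PSMB9 and PSMB10 differed by more than every other member. PSME2 (1.22) lay just above PSMA6 (1.14), and PSME1 (0.81) lay between PSMA6 and UBE2Q1 (0.73). With an adjusted p under 0.05 and a fold above 1.5, 8 of the 21 genes were higher in colonic mucosa than in liver, where 23.4% of all probes passed upward, and 0 were lower, where 18.7% passed downward. Of the 5 genes with an estimate below 0, PSMB6 and PSMC1 had an adjusted limma p under 0.05 at a fold below 1.5. All 5 immunoproteasome genes were among the 8, with a median log2 difference of 2.54. Of the 11 constitutive genes, 2 passed (PSMA5 and PSMA6) with a median of 0.20, and of the 5 UBE2 enzymes, 1 passed (UBE2Q1) with a median of 0.35. The median of all probes was 0.01. Among probes well above background on every array of some group, the median was 0.14. Of those probes, 54.9% passed in either direction, and 56.6% of these calls were upward.

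PSMB9 had the largest difference. Its level, now on the scale of all 16 arrays, ranged from 14.43 to 15.62 in colon (median 15.24) and from 11.32 to 13.30 in liver (median 12.14). The tissues did not overlap, and the log2 difference was 2.99 ± 0.28 (SE, 8 arrays per tissue), with a 95% interval of 2.40 to 3.58, which is 7.94-fold (limma, adjusted p = 4.37e-07). PSMB8 ranged from 10.76 to 12.93 in colon (median 12.24) and from 8.23 to 10.64 in liver (median 9.57). Despite this wide spread the tissues did not overlap either, and the difference was 2.56 ± 0.39, or 5.90-fold (interval on the log2 scale 1.72 to 3.40, adjusted p = 6.35e-05). PSMB10 was the most even of the inducible subunits, at 13.98 to 14.82 in colon (median 14.63) and 11.73 to 12.48 in liver (median 11.92). Its log2 difference of 2.54 ± 0.13, or 5.84-fold (interval on the log2 scale 2.26 to 2.83), had the smallest adjusted p of the 21 genes, 9.06e-10.

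The activator subunits followed at smaller differences. PSME2 was 1.22 ± 0.17 higher in colon on the log2 scale, 2.33-fold, at 13.74 to 14.37 there (median 14.08) and 12.55 to 13.87 in liver (median 12.74). PSME1 was 0.81 ± 0.13 higher, 1.76-fold, at 13.28 to 14.03 in colon (median 13.73) and 12.67 to 13.53 in liver (median 12.78). In both genes a single liver array, RPS replicate 3, reached into the colonic range. The adjusted p was 2.66e-05 for PSME2 and 7.37e-05 for PSME1 (limma).

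**Figure D2:**
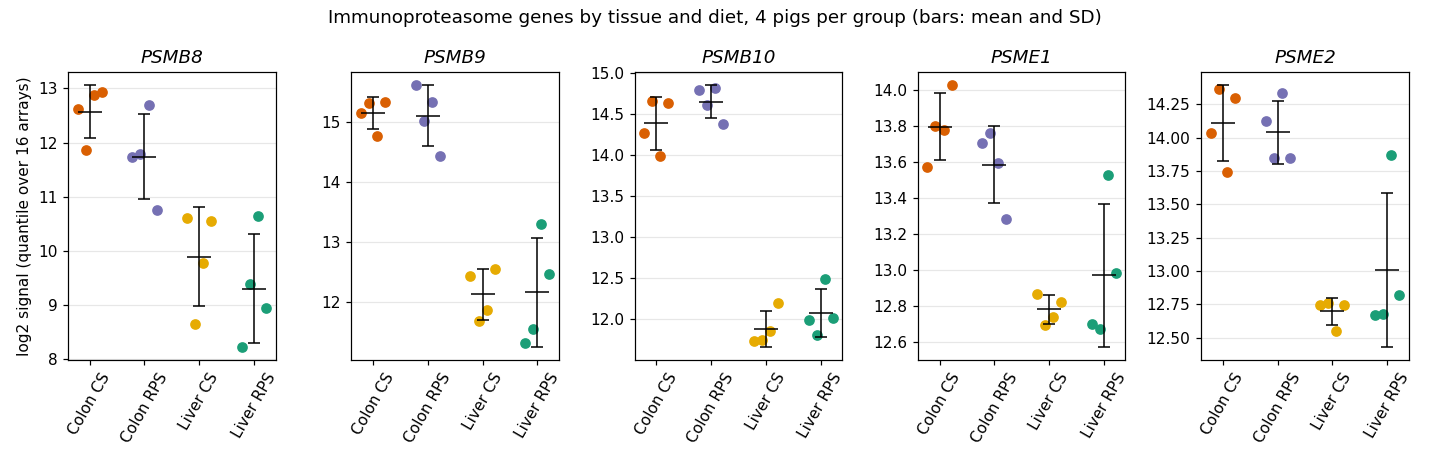
Log2 signal, quantile normalized over all 16 arrays, of the 5 immunoproteasome genes in colon CS, colon RPS, liver CS and liver RPS. Each point is 1 pig and the bars give the mean and SD of 4 pigs, and the scale differs between panels, which show different probes. For PSMB8, PSMB9 and PSMB10 every colonic point is above every liver point, whereas for PSME1 and PSME2 1 liver RPS pig reaches the colonic points.

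The catalytic subunits that are exchanged for the inducible ones did not share this direction. PSMB6, for which PSMB9 is substituted, was lower in colon by a log2 difference of -0.36 ± 0.10 (adjusted p = 0.0106, below 1.5-fold), at 12.68 to 13.15 in colon and 12.88 to 13.45 in liver, and its 2 other probes gave -0.32 and -0.50. PSMB7, for which PSMB10 is substituted, differed by -0.07 ± 0.09 (95% interval -0.28 to 0.13) at the brighter probe and by -0.40 at the other. PSMB5, the counterpart of PSMB8, carries another name on the array and was found through its RefSeq number. Its difference was -0.37 ± 0.12 (adjusted p = 0.0223), also below 1.5-fold, and its diet difference was 0.18 in colon and -0.07 in liver.

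Of the other constitutive genes, PSMA6 was 1.14 ± 0.09 higher in colon (2.20-fold, adjusted p = 4.66e-08), with 14.47 to 14.84 in colon and 13.25 to 13.90 in liver and no overlap. PSMA5 was 0.60 ± 0.11 higher (1.52-fold, adjusted p = 0.000229), just above the fold threshold, and without any 1 of 3 arrays (liver CS replicate 4, liver RPS replicate 3 or colon RPS replicate 4) it was just below it, at 0.53 to 0.57. PSMC1 was lower in colon by a log2 difference of -0.35 (adjusted p = 0.00950) and PSME3 higher by 0.35 (adjusted p = 0.0351), both below 1.5-fold. PSMA4, PSMB3, PSMB4, PSMC6 and PSMD4 did not reach an adjusted p under 0.05, with differences between -0.33 and 0.23. Among the UBE2 enzymes, UBE2Q1 was 0.73 ± 0.12 higher (1.66-fold, adjusted p = 8.84e-05), UBE2L3 0.39 and UBE2W 0.34 higher with a fold below 1.5 (adjusted p = 0.000443 and 0.000447), UBE2J1 0.35 (adjusted p = 0.124) and UBE2D2 -0.07 (adjusted p = 0.678).

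The choice of scaling moved the genes near the threshold. With each array scaled to its 75th percentile, under which 44% of all probes passed in either direction, 5 genes were higher in colon (PSMB8, PSMB9, PSMB10, PSME2 and PSMA6) and 2 were lower (PSMB6 at -0.72 and PSMC1 at -0.82), while PSME1 (0.41), UBE2Q1 (0.30) and PSMA5 (0.34) stayed higher at a fold below 1.5, and PSMA4, PSMB4 and PSMC6 turned to slightly lower estimates without passing. PSMB8, PSMB9, PSMB10, PSME2 and PSMA6 passed under all 27 alternatives. Within the diets, the log2 difference of colon minus liver was 3.03 (CS) and 2.95 (RPS) for PSMB9, 2.68 and 2.44 for PSMB8, 2.51 and 2.58 for PSMB10, 1.41 and 1.03 for PSME2, and 1.01 and 0.61 for PSME1. Of these, PSME1 in the RPS pigs did not pass (adjusted p = 0.0606), and PSMA5 and UBE2Q1 were below 1.5-fold there, so that 8 genes passed within CS and 5 within RPS, where 36.8% and 34.5% of all probes passed in either direction.

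**Figure D3:**
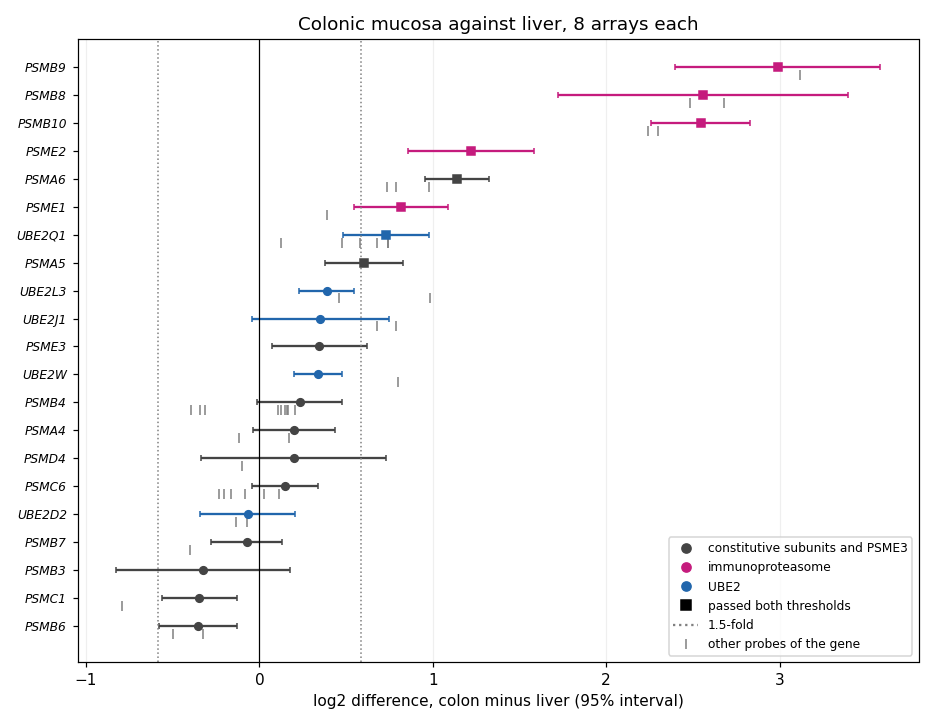
Log2 difference in signal, colonic mucosa minus liver, of the 21 genes over both diets (8 arrays per tissue), ordered by size, with 95% intervals from limma. Squares passed both thresholds, dotted lines mark 1.5-fold, and grey ticks give the other probes of a gene, without intervals. The inducible beta subunits PSMB9, PSMB8 and PSMB10 lie between 2.54 and 2.99, apart from the other genes.

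Markers of lymphocytes and general leukocytes were also higher in colon, but most macrophage genes had estimates below 0. Of all probes, 23.4% passed upward. All 7 T cell genes were higher in colon and passed, with a median log2 difference of 3.03, and their summed signal was 2255 to 12803 over the colonic arrays and 446 to 1450 over the liver arrays. The 2 B cell genes measured also passed upward (CD79A at 3.97 and MS4A1 at 4.57), as did both general leukocyte genes (LCP1 at 1.98 and PTPRC at 2.11). Of the 6 macrophage genes none passed upward and 2 passed downward, CD14 at -5.86 and CD163 at -2.06. The part of these cells in the levels of the immunoproteasome genes was not tested.

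Genes that are induced by interferon along with the immunoproteasome were measured for 6 of 8 listed names. In colon against liver, 4 of them were higher and passed: GBP1 and GBP2, guanylate-binding GTPases, by log2 differences of 3.78 and 3.30, TAP1, a chain of the peptide transporter and neighbour of PSMB8, by 2.61, and the transcription factor IRF1 by 2.54. TAP2, the partner chain of TAP1 and the neighbour of PSMB8 on its other side, was lower in colon at -0.60 (1.52-fold, adjusted p = 0.00278). B2M, the light chain of MHC class I, differed by 0.45 and did not pass (adjusted p = 0.239). None of the 6 passed the diet thresholds in colon or in liver. The list median was 2.58 for colon minus liver, -0.11 for the diet in colon and 0.26 for the diet in liver.

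Upstream of the UBE2 enzymes, the 2 E1 genes measured of 8 listed were higher in colon and passed, UBA1, the main ubiquitin-activating enzyme, by 1.49 and UBA3, the catalytic subunit of the NEDD8-activating enzyme, by 0.90. Of 3 genes for ubiquitin and its relatives (of 7 listed), SUMO2 passed upward at 1.05, and UBB (-0.28) and ISG15 (1.14, adjusted p = 0.189) did not pass. Of the assembly and regulatory factors, 2 of 16 listed were measured, PSMG1, an assembly chaperone, at 0.73, which passed, and UCHL5, a deubiquitinase of the regulatory particle, at 0.48, which did not. None of these 7 genes passed the diet thresholds in either tissue.

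The spread between pigs of 1 group set how well each gene could be compared. The pooled SD of PSMB8 within the 4 groups was 0.82 on the log2 scale, higher than that of 95.4% of the 23415 probes detected above background on every array, whose median was 0.324. PSMB9 followed at 0.61 (above 86.9% of the probes), then PSMD4 at 0.52 and PSMB3 at 0.49, all 4 above the median probe. At the other end, UBE2W had a pooled SD of 0.09, lower than nearly all probes (above 0.397% of them), and UBE2L3 one of 0.11. PSMB10, PSME1 and PSME2, at 0.27, 0.25 and 0.35, varied less than the MHC-linked PSMB8 and PSMB9.

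The wide range of PSMB8 was read alike by its 3 probes, whose sequences are given above. The log2 signals of the probes correlated with r of 0.987 to 0.996 over the 8 colonic arrays and 0.997 to 0.999 over the 8 liver arrays, as a description of readings of the same RNA, and the probe without overlap, A_72_P088176, ranged from 7.45 to 9.99 in liver and 10.68 to 12.51 in colon. All 3 probes passed in colon against liver (log2 differences 2.48 to 2.68) and none by diet (colon -0.81 to -0.57, liver -0.61 to -0.59). The lowest CS array for PSMB8 was numbered 2 in each tissue, at 11.95 in colon and 8.45 in liver. The lowest RPS array was numbered 4 in colon, at 10.91, and 1 in liver, at 8.02. The labels do not say whether a number stands for the same pig in both tissues.

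**Figure D4:**
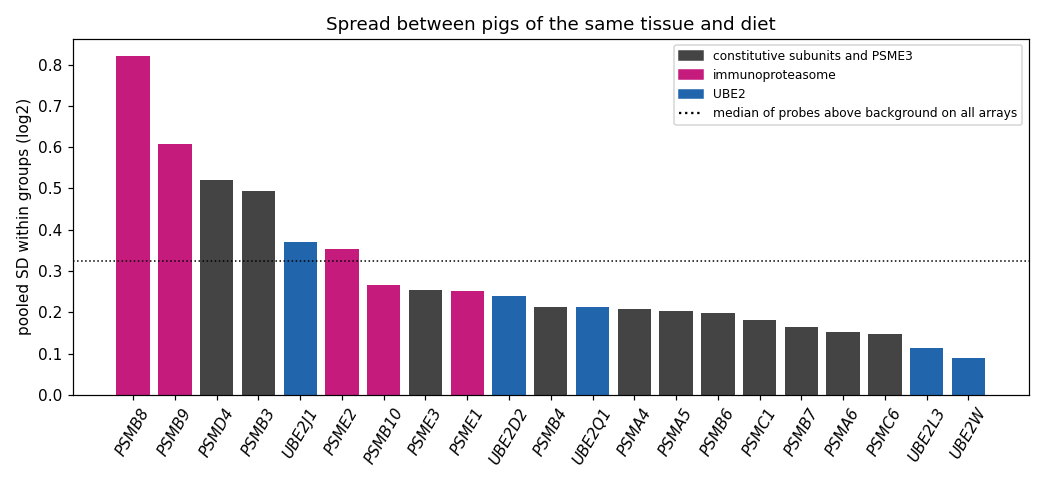
Pooled SD of log2 signal between pigs of the same tissue and diet for each of the 21 genes (4 groups of 4 pigs, normalized within tissue). Bars are coloured by family and the dotted line is the median of all 23415 probes well above background on every array, 0.324, which PSMB8 at 0.82 and PSMB9 at 0.61 exceed and UBE2W at 0.09 falls far below.

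One liver array stood apart in the immunoproteasome genes. RPS replicate 3 was the highest of the 8 liver arrays for all 5 of them. On the liver scale, its PSME2 level was 13.90, while the other 7 arrays reached 12.79 at most, and its PSME1 level was 13.54 against at most 12.96. The same array held the highest PSMB9 (13.29 against at most 12.50), PSMB10 (12.43 against 12.12) and PSMB8 (10.49 against 10.45), the last by a small margin. Among the 11 constitutive genes it was the highest for 4, PSMA6, PSMB4, PSMC1 and PSMD4, and among the 5 UBE2 enzymes for none. The share of all probes for which this array was the highest was not counted.

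The genes induced along with the immunoproteasome were also high on this array, which held the highest value for 4 of the 6 measured and for ISG15, the interferon-induced ubiquitin-like protein. ISG15 stood 4.53 log2 units above the mean of the liver CS arrays there and TAP1 1.35 units above it. For ISG15 the next highest array, RPS replicate 4, was 2.19 above that mean, whereas RPS replicates 1 and 2 were below it for both genes. Of the 7 T cell genes, RPS replicate 4 was the highest liver array for 5 and RPS replicate 3 for 1. The part of any cell type in the levels of RPS replicate 3 was not tested. Without RPS replicate 3 the liver diet difference went from 0.33 to 0.03 for PSME2 and from 0.20 to 0.01 for PSME1, that of PSMB10 went from 0.21 to 0.06, that of PSMB9 turned from 0.03 to -0.37, and that of PSMB8 went from -0.61 to -1.06, none of which passed.

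**Figure D5:**
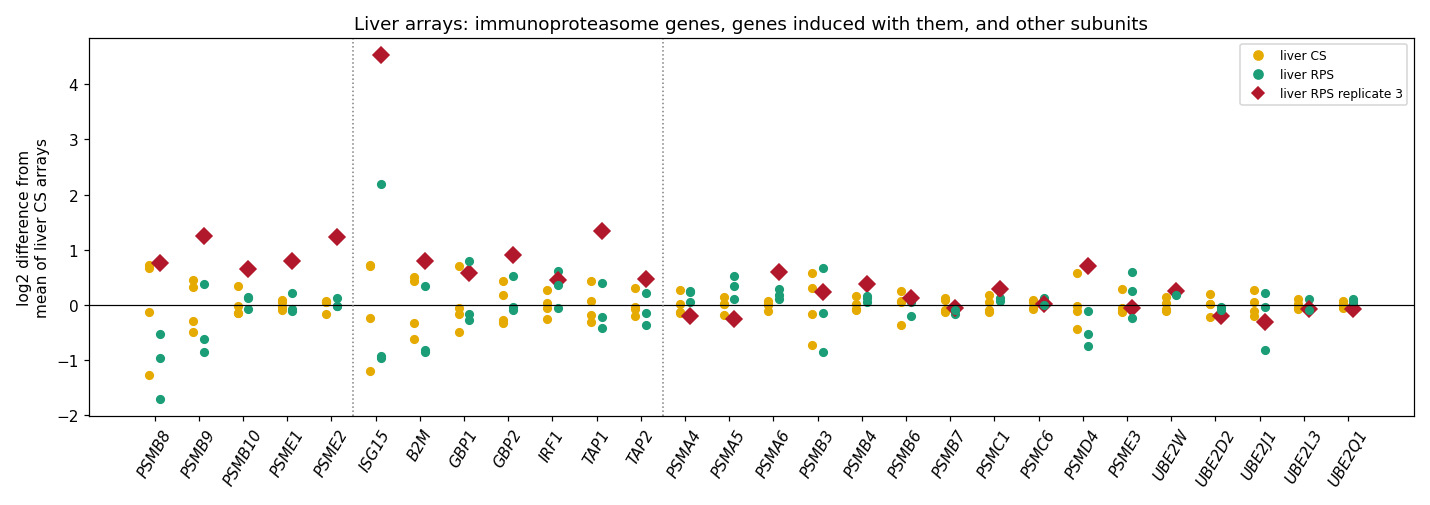
Log2 difference of each liver array from the mean of the 4 liver CS arrays, for the 5 immunoproteasome genes (left), ISG15 and 6 genes induced with them (centre) and the 16 other members (right). Points are CS and RPS pigs and diamonds mark RPS replicate 3, which is the highest array for all 5 immunoproteasome genes and for ISG15, at 4.53, and for 4 of the 16 members at the right.

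The probes of a gene did not always give the same picture. For colon minus liver, 4 of the 17 genes with several probes (PSMA4, PSMB4, PSMC6 and PSMD4) had probes of opposite sign, and in none of them did probes pass an adjusted p under 0.05 in both directions. PSMB4, with 10 probes, had 7 between 0.10 and 0.23, none with an adjusted p under 0.05, and 3 between -0.40 and -0.32, each with an adjusted p under 0.05. Of those 3, A_72_P578388 and A_72_P626548 are shown because they go against the brighter probes of the same gene. Their longest unbroken shared stretch is the 18 bases in capitals. Apart from an extra c in A_72_P578388 after the capitals, the match runs on to the end of that probe.
PSMB4, A_72_P578388: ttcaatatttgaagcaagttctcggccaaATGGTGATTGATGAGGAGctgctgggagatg
PSMB4, A_72_P626548: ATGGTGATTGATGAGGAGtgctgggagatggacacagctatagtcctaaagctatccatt
PSMC1 was lower in colon at both probes, by -0.35 at the brighter and by -0.79 at the dimmer one, which passed (adjusted p = 2.43e-06). UBE2L3 ranged from 0.39 to 0.99 over 3 probes, UBE2J1 from 0.35 to 0.79 over 3, UBE2W was 0.34 and 0.80, and UBE2Q1 ranged from 0.12 to 0.74 over 7, of which 2 were not well above background on all arrays. All probes of PSMA6, PSMB8, PSMB9 and PSMB10 passed upward. PSME1 was 0.81 at the probe used and 0.39 at the other, A_72_P680482, which was below 1.5-fold. Averaged over all probes of a gene, 9 genes passed, against 39.2% of all genes, UBE2J1 and UBE2L3 being added at 0.61 each and UBE2Q1 lost at 0.58.

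For the diet, 1 of the 65 probes passed both thresholds in colon, that of PSMB3, and 0 in liver or for the difference of the diet effects (limma, with 5 of the 65 in colon and 3 in liver at an unadjusted p under 0.05, as had 5.42% and 7.59% of all probes). One of the 5 was the second PSME1 probe, at -0.34 in colon (unadjusted p = 0.0368, adjusted p = 0.900), where the probe used gave -0.20.

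The gene names of the array are old, and 11 further proteasome or UBE2 genes were found only through RefSeq numbers or accessions. None of the 11 passed the diet thresholds (limma, 1 at an unadjusted p under 0.05 in colon and 0 in liver), as did 2.94% of all probes in colon and 3.56% in liver. That one, named after its values were seen, was UBE2J2, a membrane-bound enzyme like UBE2J1, at -0.56 in colon (unadjusted p = 0.00324), just below 1.5-fold. In colon against liver, UBE2A (0.61), UBE2D1 (0.79) and UBE2E2 (-2.44) passed, where 23.4% of all probes passed upward and 18.7% downward. The proteasome genes PSMA1, PSMA3, PSMB5, PSMB11, PSMC5 and PSMD3 did not pass, nor did UBE2J2 and UBE2K.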

How the data were processed

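Total RNA of 16 tissue samples was labelled with Cy3 and hybridized to one-colour Agilent porcine arrays. Per the file headers, the authors scanned the arrays and extracted spot intensity values with Agilent Feature Extraction 10.7 (background subtracted, not normalized between arrays). A second deposited file holds the authors' own log2 signals, already quantile normalized, which differed by at most 0.393 from those normalized here and served as an alternative. Depth is not defined for arrays, and their number limits the precision.

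From the processed intensity, 43803 non-control spots (43603 probes) were taken to log2, outlier spots were set to missing, and quantile normalization was run within each tissue (8 arrays) for the diet and over all 16 arrays for the tissues and the difference of diet effects. Probes were fitted with limma 3.58.1 (R 4.3.3, with the data.table package, version 1.17.8), with Benjamini-Hochberg adjustment over all probes. For diet, a probe passed at an unadjusted p under 0.05 and a fold above 1.5, the study's thresholds, and for tissue at an adjusted p under 0.05 and the same fold. Single genes were also tested by an exact permutation test over pigs. Levels are compared within a probe, and summed signals within the same set of probes. Such sums add signals on the linear scale, so the brightest probes of a list weigh most. Fits were tested on simulated data. Figures were drawn with matplotlib 3.10.9.

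The genes, the lists of other genes and the tests were chosen with earlier results of these data known. All genes were described, with the immunoproteasome genes, PSMB5, PSMB6, PSMB7, PSME3 and every gene past the thresholds given first. Probe sequences are those of the scanner files. Some genes of the lists of other genes are not reported here and were left out of their counts and medians. RefSeq (Sscrofa11.1) gave symbols and gene order only, since the files name no build. Alternatives were another scaling, background correction, filter, test, threshold or probe rule, a replicate block and each array left out. The slide could not be used as a block, because each slide held 1 group.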

Additional observations from a re-analysis of the deposited data

Results flagged for a closer look

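In each of 84 sets of 4 arrays (21 genes in 4 groups), the gap between the outermost array and its neighbour was divided by the range, and 8 sets had a ratio above Dixon's critical value, where chance flags about 1 in 20 (4.2 of 84). PSME2 was set apart in both liver groups, by RPS replicate 3 at 13.90 (ratio 0.880, nearest 12.79) and by CS replicate 3 at 12.51 (ratio 0.929, nearest 12.71). In colon CS, replicate 3 was the highest array for PSMC6 (ratio 0.943) and for UBE2D2 (ratio 0.835), and replicate 4 was the lowest for PSME3 (ratio 0.988) and for UBE2L3 (ratio 0.911). In liver, CS replicate 2 was the highest for PSME3 (ratio 0.833) and RPS replicate 1 for PSMC6 (ratio 0.966). Most of these gaps were small: for PSMC6 in liver RPS the outer array was at 12.44 and the nearest at 12.32.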

How the results depend on the processing

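The liver diet count stayed at 0 of 21 genes under all 21 alternatives, and the count of the difference of diet effects at 0 under all but those without 1 array (range 0 to 1). The colon diet count rests on PSMB3: it was 0 with 75th percentile scaling, with normexp background correction, in the fit of all 16 arrays, with the replicate block, with a fold above 2 and with an adjusted p under 0.05, and 0 to 2 without 1 array (0 without colon CS replicate 4, colon RPS replicate 2 or colon RPS replicate 4, and PSMB8 alone without colon CS replicate 2). The PSMB3 estimate itself ranged from 0.40 to 0.71 under all alternatives, and the cause of the lost calls was not tested, apart from the 2 stricter thresholds. For colon minus liver, 8 genes became 5 with a fold above 2 and 5 on the RPS arrays alone, and 7 to 8 without 1 array. The constitutive median of the diet difference in liver (0.08) was 0.0258 to 0.18 without 1 array (0.18 without liver RPS replicate 4). No other list median of a diet difference moved beyond the spread between arrays, although the immunoproteasome median in liver (0.20) was 0.01 without liver RPS replicate 3. The list medians of colon minus liver were not part of this check. With 75th percentile scaling the constitutive genes PSMA4, PSMB4 and PSMC6 turned to lower estimates there. In colon, the share of calls over all probes that were higher with RPS was 55.2%, and 69.0% with 75th percentile scaling, with 4.51% of all probes called in place of 2.94%. With normexp the share called fell to 0.413% in colon, from 3.56% to 0.507% in liver, from 3.76% to 0.683% for the difference of diet effects and to 25.0% for colon minus liver. No called gene changed sign, and 35 values of genes not called did so in colon, 22 in liver and 6 for colon minus liver. Replicate numbers were checked by the deviations of same-numbered arrays. Between diets r was -0.51 to 0.55 in colon and -0.16 to 0.11 in liver. With 4 such values per tissue, this cannot show whether the numbers pair the diets. Between tissues r was 0.16 to 0.33 for CS, where 8 of 8 arrays correlated best with their own number. For RPS it was -0.08 to 0.07. With the replicate block, the counts were 0 in colon, 0 in liver, 8 for colon minus liver and 0 for the difference of diet effects, and no call other than that of PSMB3 (limma, unadjusted p = 0.0675, adjusted p = 1.0) changed.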
